A study of Egretta garzetta and Nycticorax nycticorax with 12 samples.

Results

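OR51 and OR52 are families of class I olfactory receptor (OR) genes, and 5 genes assigned to them were followed in the olfactory epithelium (OE) of the black-crowned night heron *N. nycticorax* and the little egret *E. garzetta*. They were chosen by gene ID from the study's list of OR genes, which holds 193 genes over both species, and the annotations hold 29946 genes in all. In *N. nycticorax* the list gives OR51 for NheS1312g002 and NheS1312g003 and OR52 for NheS1047g002 and NheS1312g001, among 61 listed OR genes. In *E. garzetta* it gives OR51 for Ega_R014141 and OR52 for none, among 132. Among the heron genes below, class I means these 5 genes, and class II means every other gene on the list. Whether class II in this sense holds genes of other groups was not checked. The paper places OR55 genes of the night heron under class I, for example. The paper's count of intact OR genes by subfamily differs from the list, with OR52 genes in *E. garzetta* and none in *N. nycticorax*. The study drew this list from OR genes with signal in these same libraries, so that a signal in at least 1 bird comes with the choice of genes and is not a result. A member not detected in any adult was thus listed through its nestling signal.

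OE, the sheet of nasal tissue that carries the olfactory neurons, was sequenced from 12 wild birds in 4 groups of 3, with a library for each bird. Nestlings of each species had a body length under 15 cm and undeveloped olfactory bulbs. Adults of *N. nycticorax* were longer than 40 cm and adults of *E. garzetta* longer than 50 cm, with bulbs of normal adult size. The nestlings came from separate nests and the adults from another place, so that stage and place cannot be told apart, and sex, age in days and treatment are not given in the sources used here. Birds are numbered 1 to 3 for nestlings and 4 to 6 for adults in each species.

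ORs are G protein-coupled receptors in the cilia of olfactory neurons, and in mammals a mature neuron is known to use a single OR gene. Class I receptors are the group that land vertebrates share with fishes, and in mouse many of them respond to water-soluble odorants such as short acids. In mammals the class I genes form a single cluster, in which OR51 and OR52 genes flank the β-globin genes, whereas the class II genes are spread over many chromosomes. The ligands of the heron receptors described here are not known from the files.

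The values are TPM, a transcript abundance that is scaled for gene length and has the same total in each bird. Read support is given as read equivalents, the coverage of a gene times its coding length divided by the read length of 150 bp, and the libraries held 10530972 to 16326012 of them. A read pair gives 2 read equivalents, and 1 read equivalent on these genes was worth 0.0554 to 0.106 TPM. The 95% intervals quoted are exact Poisson intervals with a pair as 1 event, and they cover counting error only. For a gene listed at 0 the limit is set at 3 pairs, or 6 read equivalents, throughout. Nestling 2 of *N. nycticorax* stood apart, with a median TPM over genes above 0 of 9.31 against 20.7 to 27.1 in the other birds of its species. Adult 5 of *E. garzetta* also stood apart. The progenitor gene SOX2 was at 11.5 TPM there and at 100.7 to 163 TPM in the other egrets, and none of the 131 class II genes was detected. CNGB1, a subunit of the olfactory cation channel that photoreceptors also use, was above 0 in all 12 birds, from 0.337 to 8.12 TPM. OMP, GNAL, ADCY3 and CNGA2 were not checked, because the files used here do not pair the gene IDs with these names. In such bulk tissue, fewer neurons of a kind and less RNA per neuron cannot be told apart.

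The 3 genes on scaffold 1312 of *N. nycticorax* stand in a row, and no other gene model lies on that scaffold. NheS1312g001 (OR52) runs from 3218 to 4138, NheS1312g002 (OR51) from 10878 to 11768 and NheS1312g003 (OR51) from 17607 to 18545, all on the minus strand and each with a single coding exon. The gaps between them are 6739 and 5838 bp, so that the OR52 gene and the OR51 genes are direct neighbours. NheS1047g002 (OR52) lies on scaffold 1047 from 55358 to 56275, on the minus strand, in 2 coding exons. Ega_R014141 (OR51) lies on scaffold 652 from 183901 to 184833 of the *E. garzetta* assembly, on the minus strand, in a single coding exon. Coding lengths are 870 to 939 bp, or 290 to 313 codons, and the list marks all 5 genes as intact. The models hold coding sequence without untranslated regions, and how far reads were shared between near-identical OR copies was not tested.

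All 5 genes were expressed at low levels. The highest value of any member in any bird was 2.35 TPM, and where a member was above 0 it stood higher than 1.02% to 18.1% of the genes detected in that bird. NheS1312g003 was the member with the widest detection, in 6 of 6 night herons. NheS1312g002 was detected in 5 of 6 night herons and Ega_R014141 in 5 of 6 egrets. Both OR52 genes were detected in nestlings of *N. nycticorax* and listed at 0 in its 3 adults.

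No member passed the test between stages. With limma on log2(TPM + 0.1) and Benjamini-Hochberg adjustment over all genes of a species, 0 of the 4 night heron members and 0 of the 1 egret member reached an adjusted p under 0.05. The same test called 0 of 13042 genes (0%) and 0 of 14960 genes (0%). At an unadjusted p under 0.05 there was 1 member in each species, beside 924 genes (7.08%) in *N. nycticorax* and 348 genes (2.33%) in *E. garzetta*. The night heron member was NheS1047g002, which was on the list through nestling signal alone. The median log2 fold change of nestlings over adults was 1.21 for the 4 *N. nycticorax* members and -0.45 for all genes tested there. In *E. garzetta* it was -1.96 for the single member and 0.14 for all genes tested. With a pseudocount of 1 TPM the *N. nycticorax* medians were 0.395 and -0.355, and after rescaling by median ratio 1.48 and -0.02. The members needed signal to be listed, so they are not a like set to all genes. The class II sum of *N. nycticorax* also averaged higher in nestlings, at 31.9 ± 31.6 TPM against 8.05 ± 5.97 TPM in adults (SD, n = 3 each). A class II median was not computed.

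NheS1312g003 (OR51) had the highest mean of the 4 night heron genes. It was at 2.35, 0.478 and 1.37 TPM in nestlings 1, 2 and 3 and at 0.245, 1.57 and 0.389 TPM in adults 4, 5 and 6. Nestling 1 was the highest bird and adult 4 the lowest, and the stages overlapped, since adult 5 was above nestlings 2 and 3. The mean was 1.40 ± 0.94 TPM in nestlings and 0.736 ± 0.729 TPM in adults (SD, n = 3 each), a difference smaller than the spread within either stage. The log2 fold change was 0.96 ± 0.90 (SE; limma adjusted p = 0.622), and the exact permutation test of the TPM gave p = 0.4 (two-sided, n = 3 each), where 0.1 is the smallest p that 3 against 3 birds allow. Its read support was 24.0, 8.63 and 18.1 read equivalents in the nestlings and 2.85, 17.8 and 4.03 in the adults. In read equivalents, the intervals of the highest bird, nestling 1 (12.4 to 41.9), and of the lowest, adult 4 (0.184 to 12.6), overlapped narrowly. These counts are not scaled for depth. A read equivalent was worth 0.0978 TPM in nestling 1 and 0.0860 TPM in adult 4, and the overlap does not carry over to TPM.

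NheS1312g002 (OR51), the middle gene of the scaffold, was the most even of the members detected in adults. It was listed at 0 in nestling 1 and stood at 0.144 and 0.364 TPM in nestlings 2 and 3, against 0.150, 0.152 and 0.196 TPM in adults 4, 5 and 6. The highest and the lowest bird were both nestlings. The means were 0.169 ± 0.183 TPM in nestlings and 0.166 ± 0.026 TPM in adults (exact permutation p = 1, two-sided, n = 3 each). Each adult value rested on 1.63 to 1.92 read equivalents, less than a read pair, and the nestling values on 2.47 and 4.55. The log2 fold change of -0.24 ± 0.71 (SE; limma adjusted p = 0.873) turned to 0.10 when the libraries were rescaled by their median ratio and to 0.35 without nestling 1. NheS1312g003 exceeded its neighbour NheS1312g002 in 6 of 6 birds, but the Poisson intervals of the pair overlapped in every bird except nestling 1.

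The OR52 genes were seen in nestlings and not detected in adults. NheS1047g002 was at 0.125, 0.116 and 2.04 TPM in nestlings 1, 2 and 3 and listed at 0 in adults 4, 5 and 6. Every nestling was above every adult, a pattern that 504 of the 13042 genes tested (3.86%) also had, but nestling 3 held 88.9% of the nestling reads. The support was 1.19 and 1.93 read equivalents in nestlings 1 and 2, which is less than a read pair, and 24.9 in nestling 3 (interval 13.1 to 43.1). A value of 0 in the adults allows up to 0.557 to 0.626 TPM per bird, above what nestlings 1 and 2 showed, so that the difference was not detectable outside nestling 3.

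With the reads pooled by stage, and the adults set at 6 read equivalents over the group, the nestling to adult ratio of NheS1047g002 was 4.45. With the 28.0 nestling read equivalents also taken at their lower Poisson limit, the ratio was 2.43. That limit covers counting error in the pooled reads and not the spread between birds, so it is no bound for nestlings as a group. Without nestling 3, a removal chosen after seeing the data, the ratio to the same adult limit was 0.749 and gave no bound above 1. The fitted log2 fold change was 2.23 ± 0.95 (SE; limma p = 0.0492, adjusted p = 0.573), with an exact permutation p of 0.1 (two-sided, n = 3 each), the smallest possible. These p-values are no support for a stage difference, because nestling signal alone put the gene on the list. The fitted fold change also depends on the pseudocount because the adults are at 0, and it was 5.03 with 0.01 TPM and 0.64 with 1 TPM. Without nestling 3 it was 1.14 (limma adjusted p = 0.492), and without nestling 2, the bird of low median TPM, it was 2.80 (limma adjusted p = 0.469).

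Coverage of NheS1047g002 differed between its 2 exons. The model joins a 5′ exon of 253 bp (56023 to 56275) and a 3′ exon of 617 bp (55358 to 55974) across a gap of 48 bp. In nestling 3 the coverage was 7.08 per base on the 5′ exon and 3.15 on the 3′ exon, a ratio of 2.25, and the exons carried 11.9 and 13.0 read equivalents. In nestling 2 it was 1.15 on the 5′ exon and 0 on the 3′ exon, and in nestling 1 it was 0.478 and 0.0924. The 5′ exon was thus the better covered in 3 of 3 nestlings, but nestlings 1 and 2 held only 1.19 and 1.93 read equivalents on the gene, less than a read pair each. Their reads therefore tell nothing about evenness. Reads on both exons were well supported in nestling 3 alone, and whether its exon difference exceeds counting error was not tested.

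NheS1312g001, the OR52 gene beside the OR51 genes, showed the same stages with less support. It was at 0 in nestling 1, 0.159 TPM in nestling 2 and 0.695 TPM in nestling 3, and listed at 0 in the 3 adults. The support was 2.82 and 8.98 read equivalents, of which nestling 3 held 76.1%. Its interval in nestling 3 (2.69 to 21.9) overlapped that of a bird at 0 (up to 6). Pooled over the stage, the ratio to 6 read equivalents over the adults was 1.87. It was 0.679 with the nestling reads at their lower Poisson limit and 0.677 without nestling 3, so that no bound above 1 was reached. The log2 fold change was 1.46 ± 0.80 (SE; limma adjusted p = 0.573), with an exact permutation p of 0.4 (two-sided, n = 3 each). This gene too was on the list through nestling signal alone, so these p-values are no independent test of a stage difference. A value of 0 in every adult was shared with many receptors, since 29 of the 57 listed class II genes were also at 0 in every adult of *N. nycticorax* while above 0 in a nestling. The reverse, 0 in every nestling and a value above 0 in an adult, was seen in 0 of these 57 genes. Nestling 3 alone had 56 of the 57 detected, so that this count was nearly fixed by that bird. Nestling 1 had 6 detected, fewer than adults 4, 5 and 6 (9, 11 and 25), and the list was drawn from signal in these libraries.

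**Figure D1:**
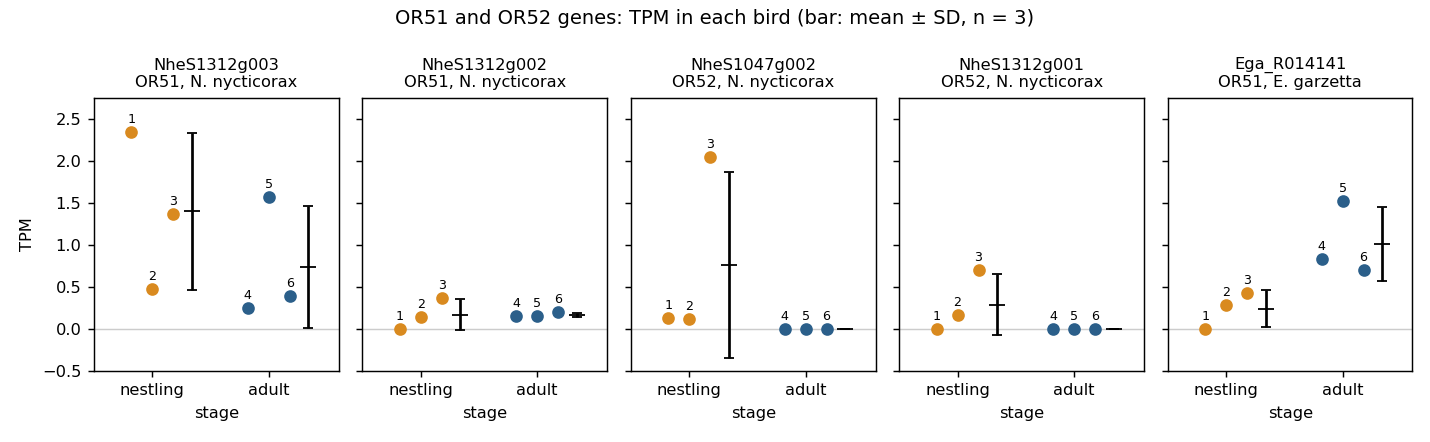
TPM of each OR51 and OR52 gene (vertical axis) in nestlings (orange) and adults (blue), with a point for each bird, its number above it, and the mean ± SD of 3 birds in black. NheS1047g002 and NheS1312g001 lie at 0 in the 3 adults, and Ega_R014141 is at 0.700 to 1.52 TPM in adults and at 0 to 0.430 TPM in nestlings.

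**Figure D2:**
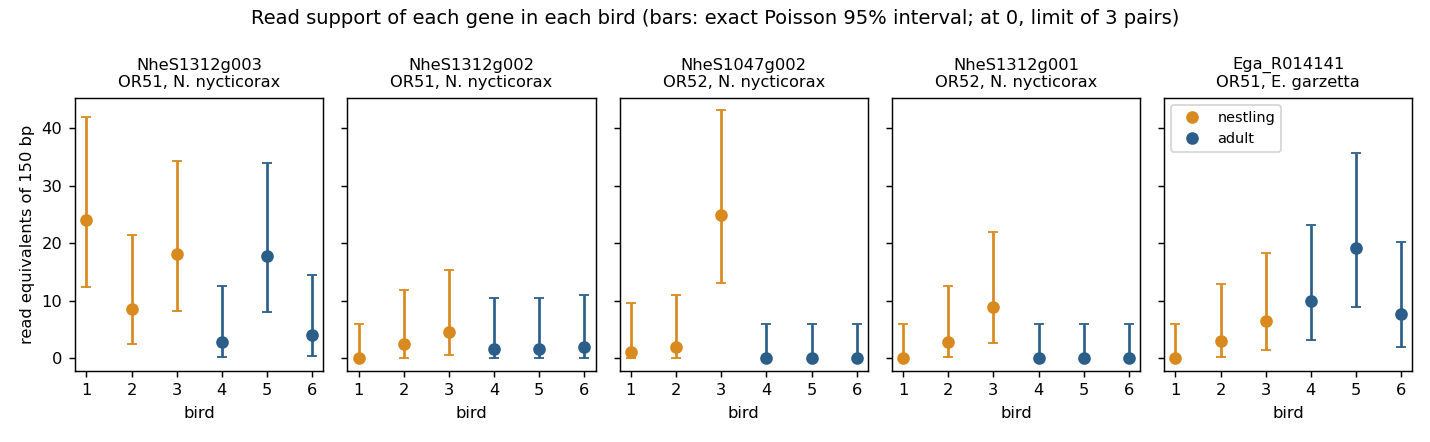
Read equivalents of 150 bp (vertical axis) behind each value, by bird (horizontal axis, 1 to 3 nestlings in orange, 4 to 6 adults in blue), with exact Poisson 95% intervals for counting error, or up to 6 read equivalents for a bird at 0. The highest supports are 24.9 read equivalents for NheS1047g002 in nestling 3 and 24.0 for NheS1312g003 in nestling 1.

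**Figure D3:**
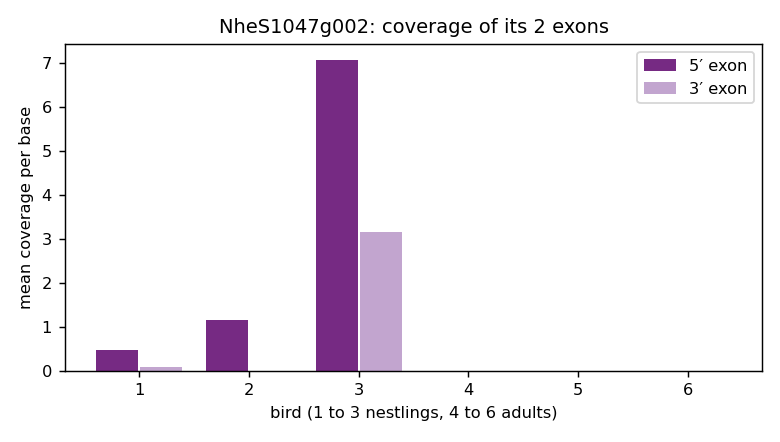
Mean coverage per base (vertical axis) of the 5′ exon (dark) and the 3′ exon (light) of NheS1047g002 in each night heron (horizontal axis). Coverage was 7.08 and 3.15 in nestling 3 and 0 on both exons in the adults.

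Ega_R014141 (OR51), the single member of *E. garzetta*, had its higher values in adults, a difference that did not pass the test after adjustment. It was listed at 0 in nestling 1, at 0.287 TPM in nestling 2 and at 0.430 TPM in nestling 3, and stood at 0.827, 1.52 and 0.700 TPM in adults 4, 5 and 6. Every adult was above every nestling, as in 283 of the 14960 genes tested (1.89%). The mean was 1.02 ± 0.44 TPM in adults and 0.239 ± 0.219 TPM in nestlings (SD, n = 3 each), a ratio of 4.25, and the difference was larger than the SD of either stage. The log2 fold change of nestlings over adults was -1.96 ± 0.76 (SE; limma p = 0.0349, adjusted p = 0.965), and the exact permutation test gave p = 0.1 (two-sided, n = 3 each), the smallest possible. Like the other members, this gene was chosen with earlier results of these data known, so these p-values are no independent test of a stage difference.

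The counts behind Ega_R014141 were small in each bird. The nestlings held 0, 3.07 and 6.53 read equivalents and the adults 9.93, 19.1 and 7.77. The interval of adult 5 (8.99 to 35.6) stayed above the limit of nestling 1 (6 read equivalents), and all other pairs of a nestling and an adult overlapped. The 0 of nestling 1 allows up to 0.520 TPM, which is below each adult value. The highest value came from adult 5, the bird in which no class II gene was detected. Without it, the remaining adults were still above the 3 nestlings and the log2 fold change was -1.65 (limma adjusted p = 1.00). Without nestling 1 it was -1.23 (limma adjusted p = 0.903).

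Summed over the class, the night heron had 2.47, 0.896 and 4.47 TPM in nestlings 1, 2 and 3 and 0.395, 1.73 and 0.585 TPM in adults 4, 5 and 6. The stages overlapped, because adult 5 was above nestling 2. The means were 2.62 ± 1.79 TPM in nestlings and 0.902 ± 0.719 TPM in adults (SD, n = 3 each). Their difference of 1.71 TPM was 0.784 without nestling 3 and 2.57 without nestling 2. OR52 gave 1.05 TPM of this difference and OR51 gave 0.667 TPM. The OR52 genes were on the list through nestling signal alone, so the sum is no independent measure of a stage difference. OR52 gave more than OR51 in nestling 3 alone (2.74 against 1.74 TPM), and the adult sums were OR51 only. The egret sum is that of Ega_R014141. Sums and shares are given without p, because the genes were chosen with earlier results of these data known.

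Class II signal, taken as all listed OR genes outside OR51 and OR52, differed between the same birds. Its part in the class I values was not tested. The summed TPM of the 57 class II genes of *N. nycticorax* was 3.37, 26.4 and 65.9 in the nestlings and 2.98, 6.55 and 14.6 in the adults. Nestling 3, the highest bird for both OR52 genes, was also highest for class II, with 56 of 57 genes detected. Nestling 1, the highest bird for NheS1312g003, had only 6 class II genes detected. In *E. garzetta* the 131 class II genes summed to 7.11, 1.09 and 47.4 TPM in the nestlings and to 30.2, 0 and 27.9 TPM in the adults.

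The class I share of all listed OR signal varied widely between birds of a group. Of the summed OR TPM, class I held 42.4%, 3.29% and 6.35% in night heron nestlings 1, 2 and 3, against 11.7%, 20.9% and 3.84% in night heron adults 4, 5 and 6. Egret nestlings had shares of 0%, 20.8% and 0.900%, and egret adults shares of 2.67%, 100% and 2.44%. The high shares were in birds with little class II signal, which follows in part from class II being in the divisor of the share. The exact binomial 95% interval of the share of read pairs was 27.5% to 66.1% in nestling 1 of *N. nycticorax* and 69.2% to 100% in adult 5 of *E. garzetta*, and in the latter bird the 19.1 read equivalents of Ega_R014141 were all of the OR signal. The stages overlapped in both species.

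**Figure D4:**
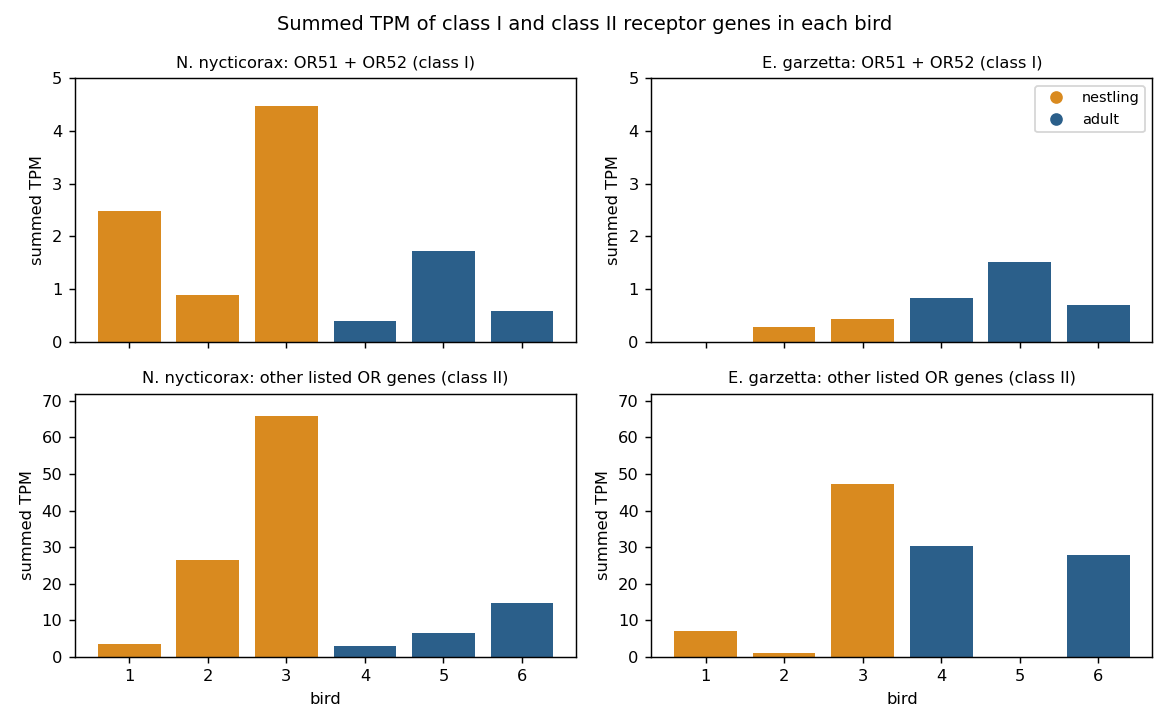
Summed TPM (vertical axes, from 0, with separate scales for the classes) of OR51 and OR52 genes (top) and of the other listed OR genes (bottom) in each bird (horizontal axis) of *N. nycticorax* (left) and *E. garzetta* (right), nestlings in orange and adults in blue. The class I sum reaches 4.47 TPM in nestling 3 of *N. nycticorax* and 1.52 TPM in adult 5 of *E. garzetta*, where the class II sum is 0.

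NheS1312g003 and Ega_R014141 were among the receptors detected in the most birds of their species. NheS1312g003 was detected in 6 of 6 birds, as were 3 of 57 class II genes, and only 3 listed OR genes had a higher mean. It was the OR gene with the highest TPM in nestling 1, and ranked 19 of 53 detected OR genes in nestling 2, 19 of 60 in nestling 3, 6 of 11 in adult 4, 3 of 13 in adult 5 and 11 of 27 in adult 6. Ega_R014141 was detected in 5 of 6 birds, as was 1 of 131 class II genes, while none was detected in 6. Only 2 listed OR genes of *E. garzetta* had a higher mean, and Ega_R014141 ranked 3 of 8 detected OR genes in nestling 2, 44 of 112 in nestling 3, 8 of 86 in adult 4, 1 of 1 in adult 5 and 9 of 86 in adult 6.

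For comparison, the class II gene with the highest mean was NheS1062g002 (OR14) in *N. nycticorax*, at 0, 3.96 and 5.73 TPM in the nestlings and 0.261, 0.552 and 0.886 TPM in the adults. In *E. garzetta* it was Ega_R011519 (OR14), at 0, 0 and 1.03 TPM in the nestlings and 2.26, 0 and 0.539 TPM in the adults. NheS1062g002 was at 0 in the bird where NheS1312g003 was highest, and Ega_R011519 was at 0 in the bird where Ega_R014141 was highest. A value of 0 was common there, since 6 of 57 class II genes were detected in the former bird and 0 of 131 in the latter.

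**Figure D5:**
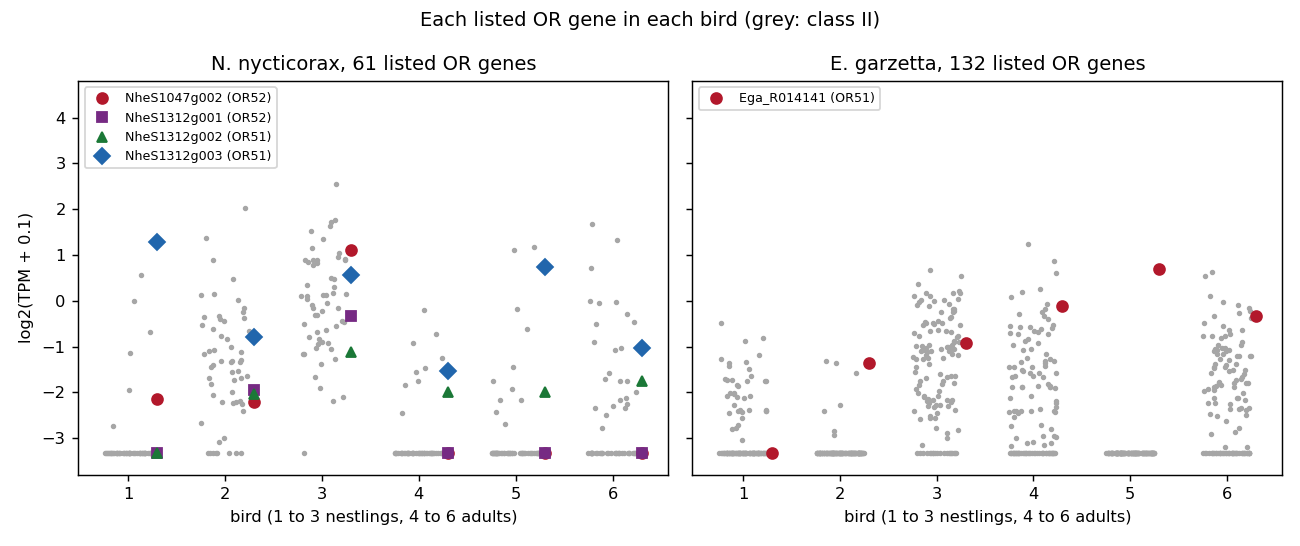
Level of every listed OR gene on the log2(TPM + 0.1) scale (vertical axis) in each bird (horizontal axis), with class II genes as grey points and class I genes as coloured symbols; the lowest row of points is 0 TPM. NheS1312g003 is the highest OR gene in nestling 1 of *N. nycticorax*, and Ega_R014141 is the single OR gene above 0 in adult 5 of *E. garzetta*.

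By level over the 6 night herons, the order was NheS1312g003 at 1.07 ± 0.83 TPM, NheS1047g002 at 0.381 ± 0.817 TPM, NheS1312g002 at 0.168 ± 0.117 TPM and NheS1312g001 at 0.142 ± 0.278 TPM (SD, n = 6). Neighbours in this order differed by less than the larger of their SDs. The order changed with stage: in nestlings the means were 1.40, 0.761, 0.169 and 0.285 TPM for the same genes, so that the last pair swapped, and in adults they were 0.736, 0, 0.166 and 0 TPM. The second place of NheS1047g002 came from nestling 3, which held 89.5% of its summed TPM. Between species, the class I sum was 1.76 ± 1.54 TPM in *N. nycticorax* and 0.627 ± 0.527 TPM in *E. garzetta* (SD, n = 6 each), from 4 genes and 1 gene, and the difference of 1.13 TPM was 0.588 without nestling 3 of the night heron. Nestlings of the night heron averaged 2.62 TPM against 0.239 TPM in egret nestlings, whereas adults averaged 0.902 and 1.02 TPM. The annotations and gene lists differ between the species, so these sums compare lists as well as birds. On the log2(TPM + 0.1) scale the stage difference of the class I sum was 3.37 higher in *N. nycticorax* than in *E. garzetta*, given as a value without a test. The night heron sums behind these stage and species values include the OR52 genes, which were listed through nestling signal alone.

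The genes whose profile over the 6 birds was most like each member were taken from the other OR genes detected in at least 3 birds and from the named vision genes of the study with a mean of at least 1 TPM. The candidates numbered 242 in *N. nycticorax* and 270 in *E. garzetta*, they share the libraries with the members, and Pearson's r of log2(TPM + 0.1) is a description. For NheS1312g003 they were CRYAB (a small heat shock protein; r = 0.87), BMPR1B (a BMP receptor; r = 0.83) and SLITRK6 (a neuronal membrane protein; r = 0.75). For NheS1312g002 they were VIM (an intermediate filament protein; r = 0.90), COL1A1 (a collagen chain of connective tissue; r = 0.90) and TSKU (a secreted protein; r = 0.88). None of these 6 was an OR gene, and OR genes were 30 of the 242 candidates. NheS1312g002 had 0 read equivalents in nestling 1 and at most 4.55 in a bird. Its r values, and its median r over the OR candidates below, thus rest on few reads.

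For NheS1047g002 they were the OR14 gene NheS1327g002 (r = 0.88), the crystallin gene CRYBA1 (r = 0.86) and the OR10 gene NheS0011g140 (r = 0.86). Both OR genes were highest in nestling 3, at 0.629 and 0.384 TPM. Nestling 3 held 89.5% of the summed TPM of NheS1047g002, so its r values, the median below included, rest mainly on that bird. Among the 30 OR candidates of *N. nycticorax*, the median r was 0.69 with NheS1047g002, 0.61 with NheS1312g002 and -0.08 with NheS1312g003. For Ega_R014141 the closest were VSNL1 (a neuronal calcium sensor; r = 0.85), PTPRM (a receptor phosphatase; r = 0.83) and BMPR1B (r = 0.75), and the median r over 66 OR candidates was 0.09.

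For other genes of the olfactory pathway the counts of calls equalled the background of 0%, as for all genes tested. Of the transduction genes CNGB1, GNB1 (a G protein β subunit) and SLC24A4 (the exchanger that clears calcium from olfactory cilia in mouse), 0 of 3 were called in each species, and 0 of 16 genes of the cilium, the organelle that holds the receptors, were called in each. The 3 progenitor genes PAX6, SOX2 and HES5 gave 0 calls as well. The limma log2 fold change of nestlings over adults was -0.24 ± 0.71 for CNGB1 in *N. nycticorax* (SE; adjusted p = 0.873) and 0.02 ± 0.93 in *E. garzetta* (SE; adjusted p = 0.980). CNGB1 was highest in nestling 3 of each species, at 8.12 and 3.66 TPM, and lowest in adult 5 of *E. garzetta*, at 0.337 TPM, where Ega_R014141 was highest.

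Genes of other tissues varied between the same birds. The 5 stroma genes (COL1A1, COL5A1, LUM, PDGFRA and PDGFRB) summed to 974 to 22335 TPM in night heron nestlings, highest in nestling 3, and to 4342 to 13014 TPM in night heron adults. The egrets had 23743 to 42799 TPM on them as nestlings and 10293 to 69472 TPM as adults, highest in adult 5. The photoreceptor genes summed to 2.85 to 11.7 TPM over all birds, and the rod opsin RH1 was at most 1.53 TPM. Their part in the member values was not tested.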

How the data were processed

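The labels name Trimmomatic, HISAT2 and StringTie. Per the file headers, the authors quantified annotated transcripts alone with StringTie 2.1.4, bird by bird. No source used here gives a version of HISAT2. The library kit does not mark strand. The deposited TPM and FPKM values are scaled for length and library by StringTie, and the deposited coverage signal is the mean read depth per base; no counts were used. The gene models hold coding sequence with 1 transcript per gene.

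Stages were compared within a species with limma 3.58.1 in R 4.3.3 (log2(TPM + 0.1), mean of at least 0.02 TPM, intensity trend), tested on simulated data, and with two-sided exact permutation tests in scipy 1.17.1. P-values from limma set the difference between stages against the spread between birds within a stage, with variances moderated over genes. The exact test compares groupings of the birds, with 0.1 as its smallest p. Neither separates stage from place. Members and lists were chosen with earlier results of these data known. Named besides the 5 members were, by rule, the 3 genes most like each member detected in at least 3 birds, up to 2 neighbouring gene models on each side, and the class II gene with the highest mean in each species. Planned p-values for sums over the members were left out. Alternatives were the pseudocount, no filter, rescaling by median ratio, no trend, FPKM, read equivalents scaled by library total, intact genes alone, detection minimums and leaving out each bird.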

Additional observations from a re-analysis of the deposited data

How the results depend on the processing

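No call on a member changed under any alternative, and adjusted p-values from limma ranged from 0.217 to 1.00. Of 164 recomputed values, 154 kept their direction and their side of the threshold or stayed within the spread between birds. Part of these could not change. Dropping the filter or the trend leaves a fold change as it was, and leaving out an adult does the same for the OR52 genes. The count is therefore no measure of robustness. Rescaling by median ratio moved the median log2 fold change of all genes from -0.45 to -0.02 in *N. nycticorax* and from 0.14 to 0.02 in *E. garzetta*; members were then 2.36 (NheS1047g002), 1.65 (NheS1312g001), 1.32 (NheS1312g003) and -2.07 (Ega_R014141), and NheS1312g002 turned from -0.24 to 0.10. Leaving out each bird gave -0.76 to 0.35 for NheS1312g002, and the positive end came without nestling 1. The stage difference of the class I share (nestling minus adult, percentage points) was 5.20 in *N. nycticorax*, with a range of -7.32 (without nestling 1) to 12.2, and -27.8 in *E. garzetta*, with a range of -44.1 to 4.67 (without adult 5). The species difference of the class I sum (1.13 TPM) was 2.38 in nestlings alone, -0.11 in adults alone and 0.588 to 1.40 with each bird left out, lowest without night heron nestling 3. The night heron stage difference of that sum (1.71 TPM) was 0.784 without nestling 3 and 2.57 without nestling 2. It includes the OR52 genes, which were listed through nestling signal alone. With same-numbered birds of the species taken as a replicate block, the species difference was 1.13 TPM as well, since the block leaves the mean difference unchanged. The numbers do not pair birds, and no paired analysis was possible between stages because nestlings and adults share no numbers. The stage difference between species of 3.37 was 1.56 with a pseudocount of 1 TPM. Adult *N. nycticorax* held 2 members above 0, and 1 with at least 2 read equivalents. Without nestling 3 of *N. nycticorax*, the pooled read ratios fell to 0.749 for NheS1047g002 and 0.677 for NheS1312g001. The cause of these shifts was not tested. Depth limits all members, which rested on at most 24.9 read equivalents in a bird.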

Other observations

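The gene models beside the members differed from them in level. Below Ega_R014141 on scaffold 652, the models Ega_R014139 and Ega_R014140 lie 37.0 and 31.7 kb away, with 1687 to 6420 TPM and 10.1 to 37.7 TPM over the 6 egrets, and Ega_R014142 lies 97.6 kb above it with 20.1 to 28.4 TPM. Ega_R014139 was highest in nestling 1, where Ega_R014141 was at 0, and lowest in adult 5, where Ega_R014141 was highest. The model beside NheS1047g002, NheS1047g001, lies 34.5 kb away and was lowest in nestling 3 (68.4 TPM against 315 to 666 TPM in the other night herons), the bird with the highest NheS1047g002. These gene IDs carry no annotation in the files used, and the relations are values with no test.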
